A study of Homo sapiens with 11 samples.

Results

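CCN1, CCN2, ANKRD1, AMOTL2, AJUBA, LATS2 and CRIM1 are genes that the transcriptional co-activator YAP is known to switch on, and CCN2 is also known as a gene induced through the G protein-coupled estrogen receptor GPER. They were followed as 7 of the 19775 genes measured in MDA-MB-231 cells, a long-established triple-negative breast cancer line of human origin. Every probe set annotated to exactly 1 of these symbols was taken, 16 of 54675 on the array, and the probe sets of a gene were averaged. RNA was hybridised to 11 Affymetrix HG-U133 Plus 2.0 arrays, 1 for each RNA sample. Charcoal-stripped serum was used in the medium of all cells for 4 h beforehand, and the incubation with or without an agent lasted 3 h. The groups were E2-BSA (a conjugate of estradiol with bovine serum albumin, 1 µM, 2 arrays), E2-BSA with ICI (1 array), E2-BSA with G15 (1 array), ICI alone (10 µM, 1 array), G15 alone (10 µM, 1 array), estradiol (1 µM, 1 array), its vehicle ethanol (0.1%, 1 array), the carrier protein BSA (1 µM, 1 array) and untreated control cells (2 arrays). The combined treatments used the same doses as the single ones. The labels give ICI by this abbreviation alone. G15 is an antagonist of GPER. It is not stated whether the duplicates were separate cultures. The p-values measure only a spread between these arrays, described with the fit below, and the number of arrays limits the precision.

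YAP and its relative TAZ are held in the cytoplasm when the Hippo kinases LATS1 and LATS2 phosphorylate them. Otherwise they enter the nucleus and act through the TEAD DNA-binding proteins. Several receptors coupled to G proteins are known to reach this pathway, and estrogen acting on GPER has been linked to it in breast cancer cells. Serum and stiff culture plastic keep YAP active in many adherent lines, and MDA-MB-231 is known for high YAP activity. CCN1 (also CYR61) and CCN2 (also CTGF) encode secreted matricellular proteins and are in addition immediate-early genes that serum induces through the serum response factor SRF.

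The TEAD proteins bind the motif GGAATG, whose reverse complement is CATTCC. Stretches of 250 bases before the annotated start of 3 of the genes are shown, because they are the windows of CCN2, ANKRD1 and AMOTL2 that hold this motif. They are RefSeq sequences of GRCh38.p14, given 5′ to 3′ on the strand of the gene, which is the minus strand in each case, with every motif copy in capitals. The windows lie at chr6:131951373-131951622 for CCN2, chr10:90921088-90921337 for ANKRD1 and chr3:134374448-134374697 for the second of 2 annotated starts of AMOTL2.
CCN2: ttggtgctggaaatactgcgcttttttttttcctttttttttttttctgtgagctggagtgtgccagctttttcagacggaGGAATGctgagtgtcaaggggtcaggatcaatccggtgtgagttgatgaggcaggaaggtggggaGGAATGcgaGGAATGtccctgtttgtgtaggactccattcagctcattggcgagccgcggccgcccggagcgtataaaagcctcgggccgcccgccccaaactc
ANKRD1: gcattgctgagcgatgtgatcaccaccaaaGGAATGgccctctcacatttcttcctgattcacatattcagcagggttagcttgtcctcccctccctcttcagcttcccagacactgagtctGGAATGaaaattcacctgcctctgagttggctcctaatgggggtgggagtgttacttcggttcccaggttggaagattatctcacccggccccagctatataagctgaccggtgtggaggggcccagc
AMOTL2: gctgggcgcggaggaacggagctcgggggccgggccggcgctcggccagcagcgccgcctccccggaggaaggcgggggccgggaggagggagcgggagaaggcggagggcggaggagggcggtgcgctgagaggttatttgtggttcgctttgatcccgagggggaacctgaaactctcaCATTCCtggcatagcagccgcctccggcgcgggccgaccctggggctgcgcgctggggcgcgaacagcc
The CCN2 window holds 3 copies on the gene's strand, whose first bases lie -169, -104 and -95 from the start site. In ANKRD1 there are 2, at -220 and -128, and in AMOTL2 there is 1 copy on the opposite strand, at -69. Of 35116 such windows of 250 bases, 11.9% hold the motif at least once on either strand, 0.94% at least 2 times and 0.0826% at least 3 times. Of the 7 genes, 5 were found in the sequence table. The window of LATS2 and the first of 2 windows of both AMOTL2 and AJUBA hold no copy, and the second AJUBA window holds 1. The CArG box, the binding motif of SRF, is in none of the windows of these 5 genes and in 1.16% of all windows. A match to these letters is a description of the sequence and does not show binding.

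The deposited values are centred on each probe set's own middle, on a scale taken as log2, so they give differences between arrays and no level of a gene. For the same reason the markers of the line could not be checked for presence or absence. Poly-A spike-ins, which are bacterial control RNAs put into each sample ahead of labelling, divided the arrays into a set of 3 (estradiol, first E2-BSA, first control; means over 24 probe sets of 1.40 to 1.62) and a set of 8 (-0.56 to 0.10). These are called the high and the low spike-in set, and differences are given within them. The array of E2-BSA with G15 stood apart in the low set: 741 of 41091 probe sets lay over 1 below the lowest of the other 7 arrays there, against 213 in the BSA array and at most 13 in any other. The ICI, G15, E2-BSA with ICI and BSA arrays had medians over all probe sets of 0.06 to 0.09, against -0.050 in the second control array, so that a median gene was higher in them. Differences were fitted with limma over all genes, with additive terms for each agent and a term for the spike-in set, and called at a Benjamini-Hochberg adjusted p under 0.05. A group with 1 array borrows the spread of the whole fit, which left 3 residual degrees of freedom. These come from how the matched pairs of arrays with and without E2-BSA differ from one another. The spread therefore includes any change of the E2-BSA difference with ICI, G15 or spike-in set. It is not a spread between replicates alone.

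CCN1 and ANKRD1 differed more between the spike-in sets than in any fitted treatment comparison. CCN1 stood at 0.53 in the estradiol, 0.38 in the first E2-BSA and 0.61 in the first control array, all in the high set. In the low set it stood at -0.13 with BSA, -0.23 with ethanol, 0.017 with E2-BSA and ICI, -0.18 with E2-BSA and G15, -0.15 with ICI, -0.0055 with G15, -0.37 in the second E2-BSA and -0.17 in the second control array. The sets did not overlap for CCN1. For CCN2 the high set held 0.52 with estradiol, -0.015 with E2-BSA and 0.24 in the control. The low set held -0.25 with BSA, -0.11 with ethanol, 0.048 with E2-BSA and ICI, -0.17 with E2-BSA and G15, -0.17 with ICI, 0.015 with G15, -0.28 with E2-BSA and -0.26 in the control. Here the sets overlapped, because the first E2-BSA array lay among the arrays of the low set.

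ANKRD1, an ankyrin repeat protein of the nucleus and the sarcomere and a standard YAP readout, went the other way between the sets. It stood at -0.61 in the estradiol, -0.91 in the first E2-BSA and -0.49 in the first control array. Its low-set values were 0.059 with BSA, 0.54 with ethanol, 0.46 with E2-BSA and ICI, -0.059 with E2-BSA and G15, 0.33 with ICI, 0.45 with G15, 0.24 in the second E2-BSA and 0.52 in the second control array. All 3 high-set arrays were thus below all 8 others, and within the low set the BSA array and the array of E2-BSA with G15 were lowest. Over the control and E2-BSA duplicates, the high set minus the low set came to 0.76 for CCN1, 0.38 for CCN2 and -1.08 for ANKRD1. For AMOTL2, AJUBA, LATS2 and CRIM1 it was -0.30, 0.38, -0.14 and -0.31, and the median of all genes was 0.075. Known YAP targets thus stood on both sides. For 4 of the 7 (CCN1 and AJUBA higher, ANKRD1 and AMOTL2 lower in the high set) the sets did not overlap. Sets without overlap were found for 29.8% of all genes. For CCN1 and AJUBA this held for the average and for some probe sets only. A CCN1 probe set had a high-set lowest value of -0.0057 and a low-set highest of 0.017. Overlapping AJUBA probe sets had high-set lowest values of -0.40 and -0.31 against low-set highest values of 0.44 and 0.24. Whether the spike-in amount, another technical factor or the culture moved with these values was not tested.

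The other 4 genes spread as follows. AMOTL2, a YAP-binding junction protein, stood at -0.26 with estradiol, -0.26 with E2-BSA and -0.18 in the control of the high set, and its 8 low-set values ran between -0.13 and 0.48 with a median of 0.24, all above the high set. AJUBA, a LIM domain protein, stood at 0.39 with estradiol, 0.15 with E2-BSA and 0.32 in the control of the high set, and its 8 low-set values ran between -0.45 and 0.10 with a median of -0.076, all below the high set. For LATS2 the high set held -0.13 with estradiol, -0.19 with E2-BSA and -0.063 in the control, and the low set ran between -0.42 and 0.27 with a median of 0.068. For CRIM1 the high set held -0.40 with estradiol, -0.32 with E2-BSA and -0.30 in the control, and the low set ran between -0.39 and 0.39 with a median of 0.20. The lowest low-set values belonged to the array of E2-BSA with G15 for AMOTL2 and CRIM1, to ethanol for AJUBA and to G15 for LATS2, and the sets overlapped for LATS2 and CRIM1.

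**Figure D1:**
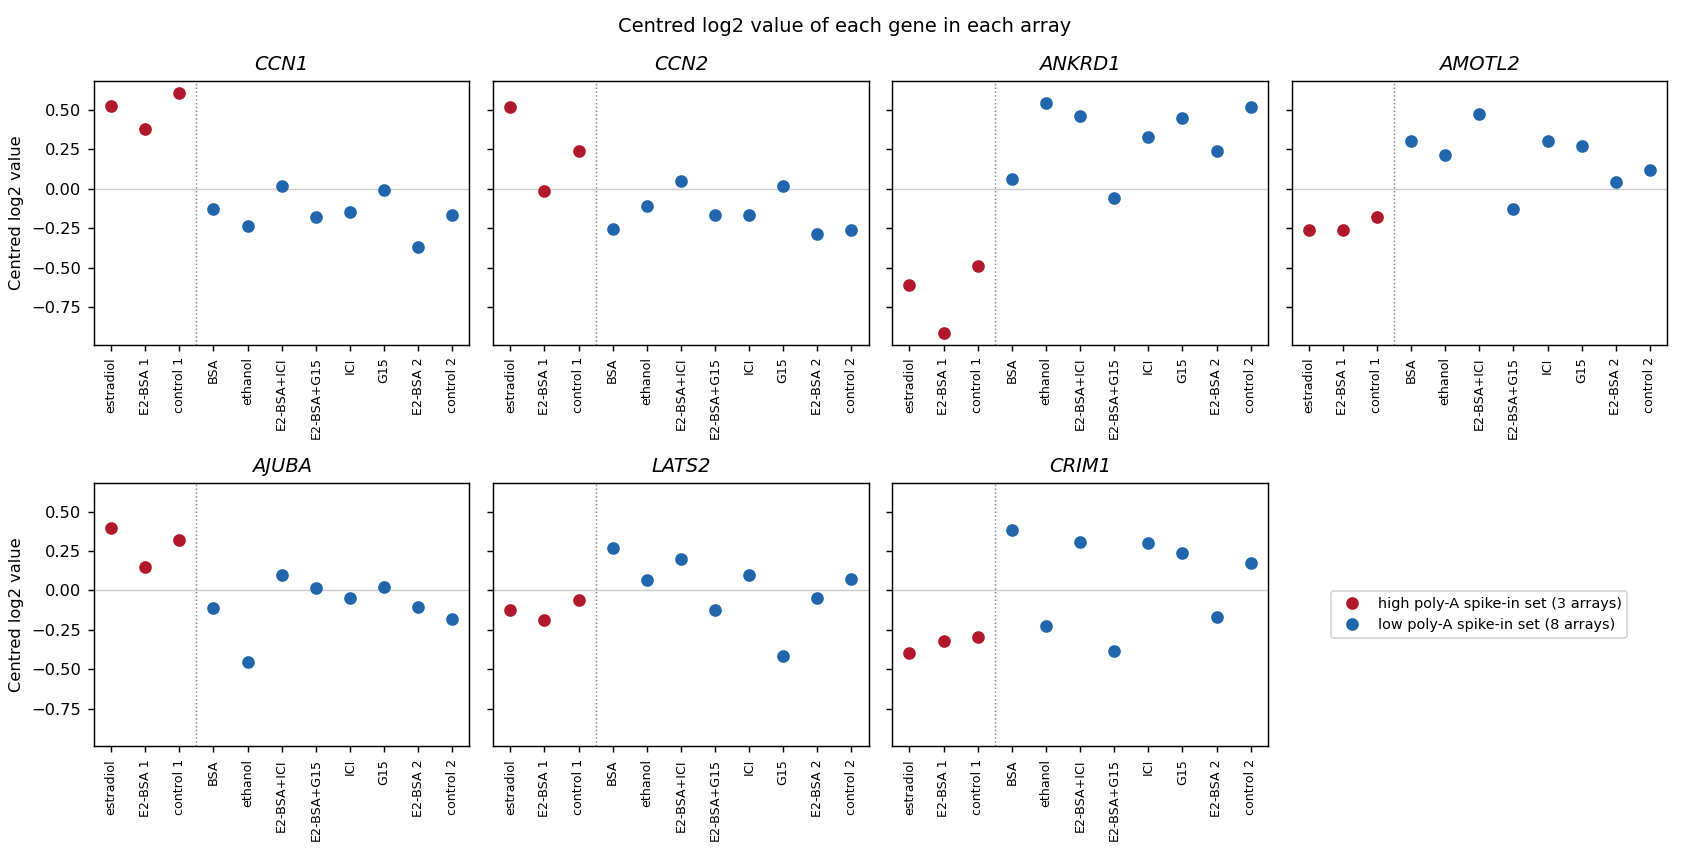
Centred log2 value (vertical axis) of each of the 7 genes in each of the 11 arrays (horizontal axis), 1 point per array, with the 3 arrays of the high poly-A spike-in set in red and the 8 of the low set in blue. CCN1 and AJUBA lie higher, and ANKRD1 and AMOTL2 lower, in all 3 red points than in any blue one.

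Within the low set CCN2 and the average of CCN1 spread little. The 8 arrays spanned 0.39 for CCN1 and 0.33 for CCN2 on the log2 scale, where the median of all genes was 0.45. These spans were wider than those of 35.8% and 22.9% of genes. By single probe set CCN1 spanned 0.22 and 0.56. Wider spans were found for ANKRD1 (0.60), AMOTL2 (0.60), AJUBA (0.55), LATS2 (0.69) and CRIM1 (0.77). The widest, that of CRIM1, exceeded the span of 90.2% of genes and ran between the array of E2-BSA with G15 and the BSA array.

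E2-BSA, a conjugate used to address estrogen receptors at the cell surface, was compared with its absence over 4 matched pairs of arrays: the first and the second arrays without antagonist, and the arrays with ICI and with G15. There was no call among the 7 genes, and limma called 0% of all genes in this comparison. ANKRD1 was lower with E2-BSA in 3 of 4 pairs, with differences of -0.42, -0.28 and -0.51 in the first, second and G15 pairs, and stood at 0.13 in the ICI pair. The fitted difference was -0.27 ± 0.11 (SE), with an unadjusted p of 0.045 and an adjusted p of 0.903 by limma. It was the single gene of the 7 at an unadjusted p under 0.05, a level that 4.69% of all genes reached. Without the array of E2-BSA with G15 the difference was -0.19, and without either ICI array it was -0.40.

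CCN1 differed by -0.23 and -0.20 in the first and second pairs, by 0.16 with ICI and by -0.18 with G15. Its fitted difference was -0.11 ± 0.090 (SE, limma adjusted p = 0.904), with a 95% interval of -0.32 to 0.10. For CCN2 the 4 pairs gave -0.25, -0.022, 0.22 and -0.18, and the fit -0.060 ± 0.093 (adjusted p = 0.944) with an interval of -0.28 to 0.16. With 1 array left out, CCN1 ran between -0.20 (without either ICI array) and -0.072 (without the first E2-BSA or first control array). For CCN2 the same omissions gave -0.15 and 0.0044, so its sign depended on them.

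CRIM1, a transmembrane protein with cysteine-rich repeats that binds bone morphogenetic proteins, stood at -0.24 ± 0.11 (SE, adjusted p = 0.903). It was -0.12 without the array of E2-BSA with G15 and -0.33 without either ICI array. AMOTL2, an angiomotin-like protein of cell junctions that binds YAP, was at -0.094 ± 0.10. It was at 0.0063 without the array of E2-BSA with G15 and at -0.18 without either ICI array. AJUBA, a LIM domain protein known to restrain LATS kinases, was at 0.0092 ± 0.080 and LATS2 at 0.039 ± 0.092, or -0.12 without 1 deviating probe set described below. The AJUBA value averages probe sets that disagreed. Of these, 1 was at 0.32 (limma unadjusted p = 0.0165, adjusted p = 0.904) and the others at 0.053, -0.14 and -0.19. Over all genes, 1685 of 41091 single probe sets were at an unadjusted p under 0.05 there. The median of the 7 genes was -0.095, against -0.018 over all genes.

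The pair with ICI differed in direction from the others. With ICI present, all 7 genes were higher with E2-BSA than without it, by 0.0070 (CRIM1) to 0.22 (CCN2), where 46.8% of all genes were higher. In the first pair 0 of 7 were higher (all genes 49.4%), in the second 1 of 7 (57.7%) and in the G15 pair 1 of 7 (34.7%). The E2-BSA with ICI array held the highest low-set value of CCN1, CCN2, AMOTL2 and AJUBA. Set against the second E2-BSA array, it was higher for CCN1 by 0.39, for CCN2 by 0.33, for AMOTL2 by 0.43 and for CRIM1 by 0.48, where the median gene was higher by 0.12.

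A direct test asked whether the E2-BSA difference changed with ICI, in a fit with a mean per group and a set term that left 1 residual degree of freedom. That degree of freedom is the difference between the first and the second pair. All 7 interaction values were above 0, 0.48 for ANKRD1, 0.38 for CCN1, 0.35 for CCN2, 0.25 for AMOTL2, 0.22 for LATS2, 0.19 for CRIM1 and 0.19 for AJUBA. None passed (limma adjusted p = 0.9996 for each), with 0% of all genes called. ANKRD1 was the single one at an unadjusted p under 0.05 (0.0492), a level reached by 2.95% of all genes. The median interaction was 0.25 over the 7 genes and -0.018 over all genes. These 7 values share the same arrays, so they do not count as 7 observations.

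**Figure D2:**
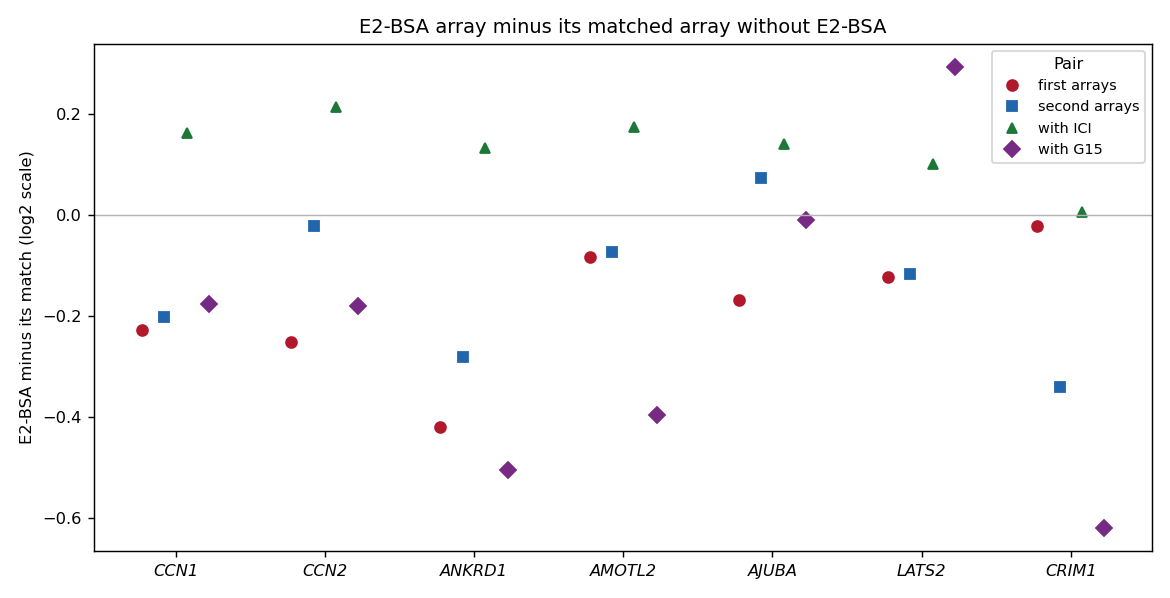
Value with E2-BSA minus the value of the matched array without it (vertical axis, log2 scale) for each gene (horizontal axis), with 1 point for each of the 4 pairs. The green triangles of the ICI pair lie above 0 for all 7 genes, at most 0.22, while most points of the other pairs lie below 0, down to -0.62 for CRIM1 in the G15 pair.

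G15 was used to ask whether GPER carries an E2-BSA effect. Between its presence and absence none of the 7 genes passed (0% of all genes called by limma, 10.3% at an unadjusted p under 0.05, and 0 of the 7 at that level). CCN2 was at 0.20 ± 0.13 (SE, adjusted p = 0.565) and CCN1 at 0.18 ± 0.13 (adjusted p = 0.59), while the median gene was at 0.10. With the array medians taken off, CCN2 and CCN1 were at 0.14 and 0.12. By single probe set CCN1 was at 0.036 and 0.32. The G15 array held 0.015 for CCN2 and -0.0055 for CCN1, against -0.26 and -0.17 in the second control array. In the interaction with E2-BSA, CCN2 was at -0.044 ± 0.20 (adjusted p = 0.96) and CCN1 at 0.039 ± 0.20 (adjusted p = 0.962), with 95% intervals of -0.53 to 0.44 and -0.42 to 0.50. There, none of the 7 passed or reached an unadjusted p under 0.05, where limma called 0.0101% of all genes and 10.3% were at that unadjusted level. These values rest on the 1 array of E2-BSA with G15 and the 1 array of G15 alone.

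LATS2, the kinase that phosphorylates YAP and is itself a YAP target, was read by 4 probe sets, which disagreed in the G15 array. One of them stood at -1.78 there and between -0.059 and 0.34 in the other 10 arrays. The other 3 stood at 0.073, 0.26 and -0.22 in the G15 array. The low value of LATS2 with G15 therefore came mostly from 1 of its 4 probe sets. The value of -0.22 was also the lowest of its probe set in the low spike-in set. Averaged over all 4, LATS2 was at -0.28 ± 0.13 with G15 (SE, limma adjusted p = 0.487), and over the other 3 at -0.12 ± 0.11 (adjusted p = 0.674), a choice made after the values were seen. Its interaction of E2-BSA with G15 was 0.41 with all 4 probe sets and -0.15 with 3.

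**Figure D3:**
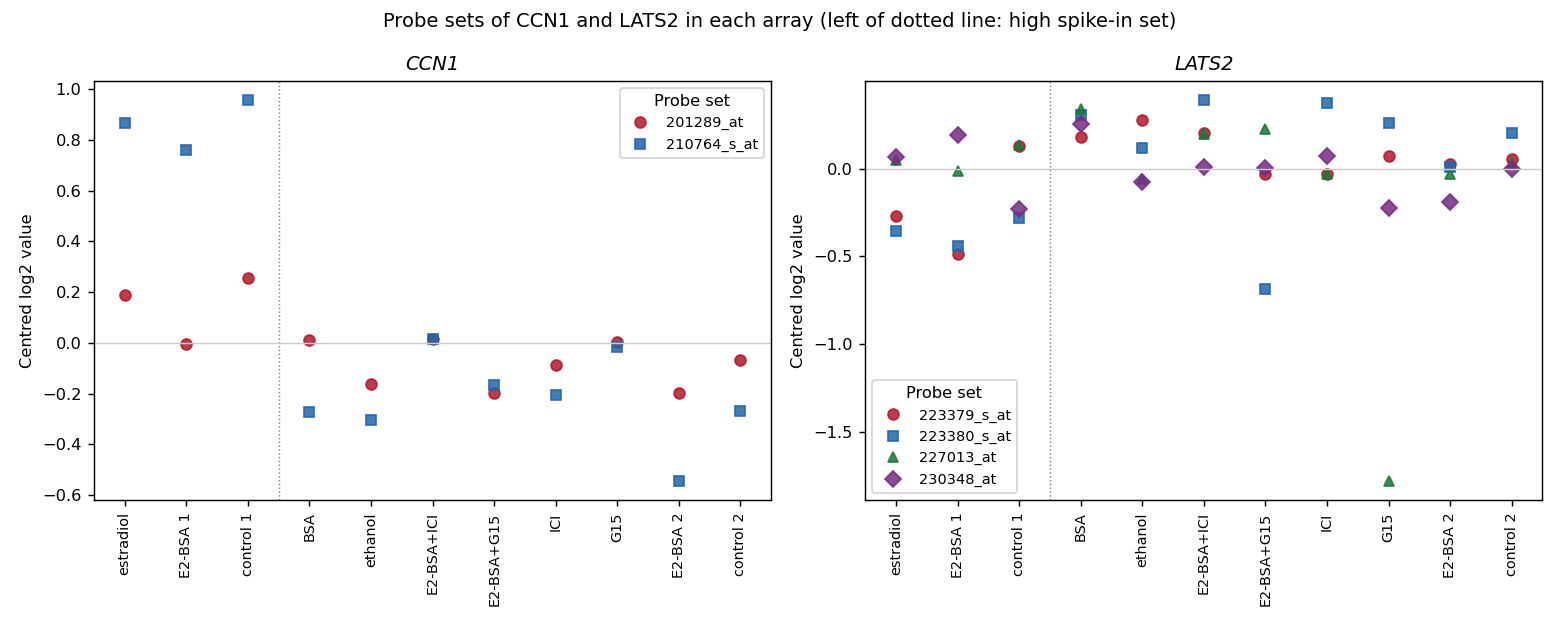
Centred log2 values (vertical axis) of each probe set of CCN1 (left) and LATS2 (right) in the 11 arrays (horizontal axis), 1 point per probe set and array, with the high spike-in set left of the dotted line. For CCN1, 1 probe set lies at 0.76 to 0.96 in the high set and the other at -0.0057 to 0.26. For LATS2, 1 of 4 probe sets lies far below the others in the G15 array.

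Probe sets of 1 gene also differed in how they followed the spike-in sets. For CCN1, the high set minus the low set was 1.27 by one probe set and 0.26 by the other. For the 3 probe sets of CRIM1 it was 0.36, -0.75 and -0.54. The 4 probe sets of AJUBA ran between -0.085 and 0.86. For these genes and for LATS2 the range between probe sets was larger than any fitted treatment difference of the gene. CCN2, ANKRD1 and AMOTL2 had 1 probe set each, so it could not be looked at for them.

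ICI was compared with its absence over 2 matched pairs, without and with E2-BSA. No member of the 7 passed (limma, 0% of all genes called), and 0 of 7 were at an unadjusted p under 0.05, where 16.3% of all genes were. All 7 values were above 0, as were 81.7% of all genes. Highest were AMOTL2 at 0.31 ± 0.15 (SE, adjusted p = 0.326), CRIM1 at 0.30 ± 0.16 and CCN2 at 0.21 ± 0.13, with CCN1 at 0.20 ± 0.13. By single probe set CCN1 was at 0.098 and 0.31. The median was 0.20 over the 7 genes and 0.14 over all genes, and with the array medians taken off ANKRD1 turned to -0.078. Without the set term CCN1 was at -0.18 and AJUBA at -0.021. Without the array of E2-BSA with ICI the values were 0.13 for AMOTL2, 0.13 for CRIM1, 0.030 for CCN2 and 0.022 for CCN1. Without the array of ICI alone they were 0.49, 0.47, 0.40 and 0.39 in the same order. AMOTL2 was higher with ICI by 0.43 in the presence of E2-BSA and by 0.18 without it.

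Free estradiol was compared with the control level of the same spike-in set. The fit drew that level from the first control array and the first E2-BSA array less the fitted E2-BSA term. CCN2 stood at 0.52 in the estradiol array, the highest of its 11 values, against 0.24 in the first control array, a difference of 0.28. In the fit it was at 0.38 ± 0.17 (SE, 95% interval -0.012 to 0.77, unadjusted p = 0.0557, limma adjusted p = 0.724). The fitted 0.38 became 0.28 without the first E2-BSA array and 0.54 without the first control array. CCN1 was at -0.021 ± 0.16 (adjusted p = 0.999), and ANKRD1 was at -0.041 ± 0.20. In that comparison none passed or reached an unadjusted p under 0.05, with 0% of all genes called and 7.06% at that unadjusted level.

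At the same dose of 1 µM and in the same spike-in set, CCN2 stood at 0.52 with free estradiol and -0.015 with E2-BSA, while CCN1 stood at 0.53 and 0.38. Both values are from single arrays, and this difference was not tested. Against its vehicle ethanol, which lay in the other spike-in set, estradiol gave 0.25 ± 0.23 for CCN2 (limma adjusted p = 0.842) and 0.47 ± 0.20 for AJUBA (adjusted p = 0.593). AJUBA alone of the 7 was at an unadjusted p under 0.05 there, and its ethanol value, -0.45, was the lowest of its 11. In that comparison limma called 0.0101% of all genes, none of the 7 among them, and 8.31% were at an unadjusted p under 0.05.

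In the ethanol array 2 other immediate-early genes passed while the 7 YAP targets did not. FOS rose by 3.04 ± 0.25 (SE, limma adjusted p = 0.0103) and EGR1 by 2.91 ± 0.17 (adjusted p = 0.00346) against control. Over 16 alternative fits EGR1 passed in 13 and FOS in 12. Without the second control array the adjusted p was 0.201 for EGR1 and 0.209 for FOS, without the second E2-BSA array 0.0624 and 0.13, and without the set term 0.9997 for both. In the same comparison CCN1 was at -0.019 ± 0.16 (adjusted p = 0.995, 95% interval -0.39 to 0.36) and CCN2 at 0.13 ± 0.17 (adjusted p = 0.972, interval -0.26 to 0.52). ANKRD1 was at 0.028, CRIM1 at -0.35 and AJUBA at -0.31. Among the 7, none passed or was at an unadjusted p under 0.05, against 0.086% of all genes called and 6.35% at that unadjusted level. Ethanol had 1 array and no replicate. That array also held the highest mean of the hybridisation controls, 0.77 against -0.28 to 0.21 in the other 10, and 39 of 41091 probe sets lay over 1 above the highest of the other low-set arrays, against 31 in the BSA array and 0 in the other 6. Their part in these values was not tested.

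BSA, the carrier of the conjugate, gave no call among the 7 genes either, although limma called 0.354% of all genes in that comparison. ANKRD1 was lowest, with 0.059 in the BSA array against 0.52 in the second control array, and a fitted difference of -0.46 ± 0.20 (SE, adjusted p = 0.318). CCN1 was at 0.083 ± 0.16 (adjusted p = 0.798) and CCN2 at -0.011 ± 0.17 (adjusted p = 0.976). LATS2 and CRIM1 were at 0.28 and 0.26, where the median gene was at 0.17. At the same time none was at an unadjusted p under 0.05, against 16.1% of all genes. Without a term for the spike-in set the difference was 0.044 for ANKRD1, -0.35 for CCN1 and -0.24 for CCN2, none of them called.

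Against BSA, E2-BSA gave -0.50 ± 0.21 for CRIM1 (SE, limma adjusted p = 0.267), the single gene of the 7 at an unadjusted p under 0.05 (0.0402), where 17.8% of all genes were. The second E2-BSA array stood at -0.17 for CRIM1 and the BSA array at 0.39. CCN1 was at -0.19 ± 0.16 and CCN2 at -0.048 ± 0.17, with a median gene of -0.19. None of the 7 passed, and 0.308% of all genes did. The comparisons of BSA with control and of E2-BSA with BSA share the 1 BSA array.

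**Figure D4:**
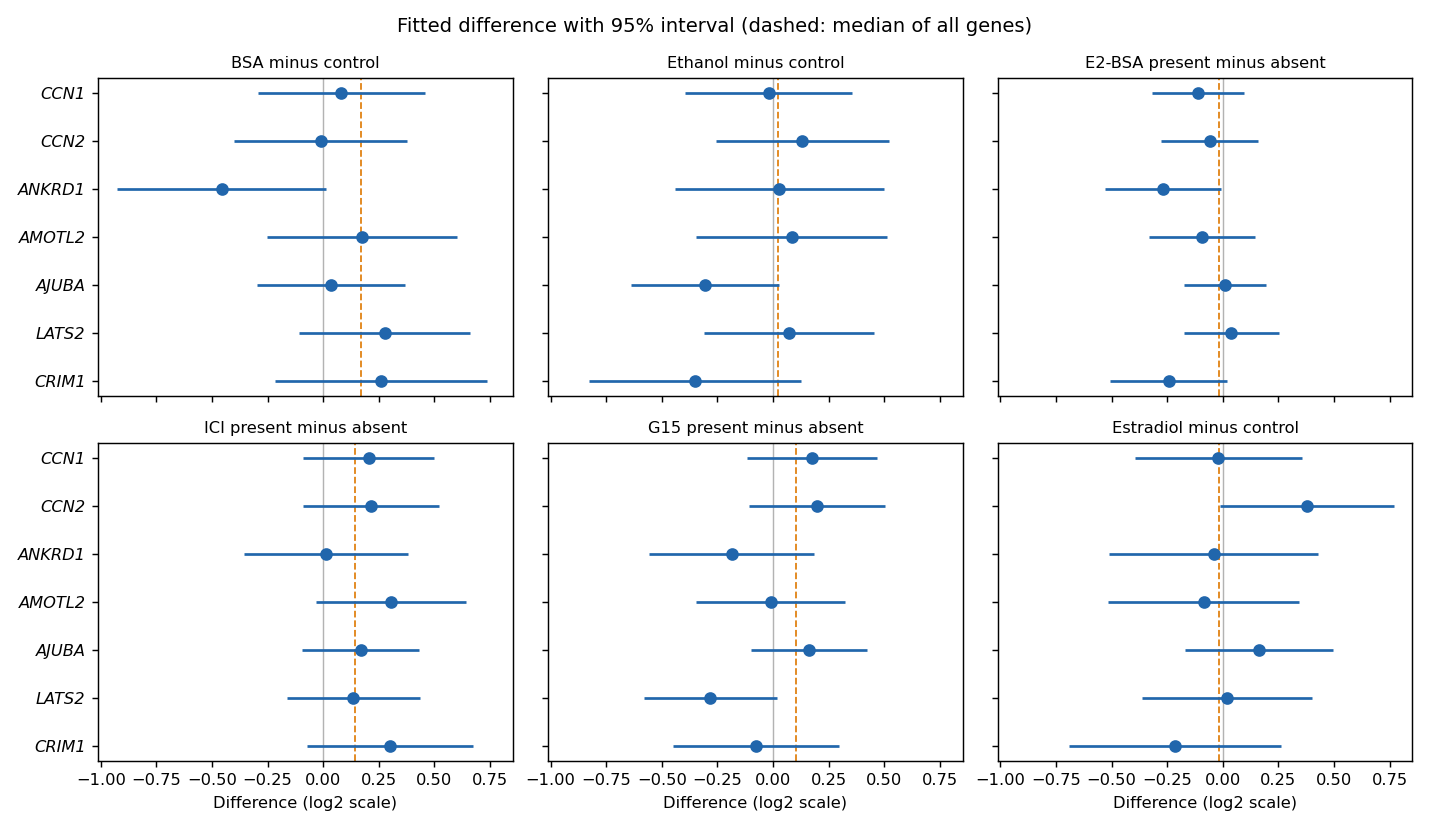
Fitted differences (horizontal axis, log2 scale) of the 7 genes (vertical axis) in 6 comparisons, 1 per panel; points are limma estimates from 11 arrays, bars their 95% intervals, and dashed lines the median of all genes. The intervals include 0 except that of ANKRD1 with E2-BSA (-0.53 to -0.0077), which did not pass after adjustment.

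Other genes of the pathway gave no call. Of 16 further YAP and TEAD targets 15 were measured, and 0 passed in any of the 10 comparisons (limma over all genes). With E2-BSA 6 of 15 were above 0, with a median of -0.025 against -0.018 over all genes. FOXF2, a forkhead transcription factor, was at 0.18 ± 0.10 (SE) and RBMS3, an RNA-binding protein, at -0.17 ± 0.094 (adjusted p = 0.903 for both). In the BSA comparison their median was 0.19 against 0.17, with FJX1 at 0.59 ± 0.15 (adjusted p = 0.224) and MYOF, a membrane repair protein, at -0.60 ± 0.17 (adjusted p = 0.234). With ethanol it was -0.10 against 0.021, where GADD45A, a stress gene that p53 also induces, was at 1.30 ± 0.22 (adjusted p = 0.181) and PTPN14, a phosphatase that binds YAP, at -0.31 ± 0.15.

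The Hippo kinases, YAP1, WWTR1 (which encodes TAZ) and the TEAD genes, 18 in all, likewise had 0 genes that passed. With E2-BSA 6 of 18 were above 0 (median -0.077), and the smallest p belonged to TEAD1 at -0.36 ± 0.14 (SE, limma adjusted p = 0.903) and VGLL4, which competes with YAP for the TEADs, at -0.31 ± 0.15. With BSA they were TEAD4 at 0.53 ± 0.16 and the kinase gene STK3 at 0.41 ± 0.14, and with ethanol MOB1B, a LATS partner, at -0.54 ± 0.16 and TEAD1 at -0.51 ± 0.25. The other 4 CCN genes gave 0 calls. CCN5 was at 0.85 ± 0.28 with BSA (adjusted p = 0.26) and 0.24 ± 0.28 with ethanol, CCN3 at -0.20 ± 0.19 with ethanol and -0.14 ± 0.11 with E2-BSA, and CCN6 at 0.15 ± 0.13 with BSA and 0.11 ± 0.073 with E2-BSA.

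In the interaction of E2-BSA with G15 some genes of these lists lay farther from 0, and those named here were chosen after their values were seen. F3, the YAP target that encodes tissue factor, was at 1.43 ± 0.21 (SE, limma adjusted p = 0.0907). Of the 18 Hippo and TEAD genes 6 were at an unadjusted p under 0.05, a level of 10.3% of all genes, and all of those lay below 0. They included WWTR1 at -0.81 ± 0.19 (adjusted p = 0.2), the kinase gene TAOK1 at -0.92 ± 0.23 and TEAD1 at -0.73 ± 0.19. None passed after adjustment, and the median of the 18 was -0.29 against -0.10 over all genes. Each value rests on the array of G15 alone and on that of E2-BSA with G15, which stood apart.

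Cytoskeletal targets of SRF, 13 of 16 measured, gave 0 calls in the 10 comparisons. With E2-BSA 1 of 13 was above 0, at a median of -0.064 against -0.018 over all genes, of which 42.7% were above 0. MYH9, a nonmuscle myosin heavy chain, was at -0.18 ± 0.10 (SE) and THBS1, a matricellular protein, at -0.13 ± 0.082 (limma adjusted p = 0.903 for both). The myosin light chain MYL9 and the focal adhesion protein zyxin (ZYX) had the smallest p of the list with ethanol, 0.40 ± 0.14 and 0.27 ± 0.17, and with BSA, 0.36 ± 0.14 and 0.39 ± 0.17, and none passed. Of the GPER-related genes, GPER1 itself was at -0.067 ± 0.075 with E2-BSA (adjusted p = 0.92) and 0.36 ± 0.11 with G15 (adjusted p = 0.482). HES1, a Notch target, and FASN, the fatty acid synthase, were at -0.10 ± 0.091 and -0.094 ± 0.10 with E2-BSA. With BSA, HES1 was at 0.26 ± 0.16 and FOS at -0.25 ± 0.25, neither passing. EGR1 was lower with estradiol than with ethanol, at -2.67 ± 0.23 (estradiol minus ethanol, limma adjusted p = 0.0378), and at 0.25 ± 0.17 for estradiol minus control (adjusted p = 0.914). The call against ethanol passed in 4 of 15 alternative fits, with adjusted p between 0.00679 and 0.798 over them.

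Short marker lists were read beside these. Of 3 mesenchymal, 4 epithelial, 3 luminal and 2 measured leukocyte markers (of 3 listed), 0 passed in any of the 10 comparisons. With E2-BSA their medians were 0.065, -0.062, -0.045 and -0.10 in that order, and with centred values none could be called absent.

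Genes most alike CCN1 and CCN2 were found by Pearson's r over the 11 arrays after each spike-in set's mean was taken off, among 926 genes whose such values spanned at least 1. For CCN1 they were GPR52 (r = 0.82), LAMP5 (r = 0.78), HTR1E (r = 0.76), H1-2 (r = 0.75) and LOC730101 (r = 0.74). For CCN2 they were SLC25A2 (r = 0.82), TOX-DT (r = 0.80), NAV2-AS5 (r = 0.80), SPMIP6 (r = 0.79) and HDHD5-AS1 (r = 0.78). All 10 have 1 probe set, and the 2 lists share no gene. The same 11 arrays underlie every r, and with spans of 0.39 for CCN1 and 0.53 for CCN2 these values are a description only.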

How the data were processed

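The authors deposited log2-scale values for 54675 probe sets on 11 arrays. How they summarised and normalised the arrays, and the log base, are not given in the sources used here. The values run from -4.20 to 6.69, and 51.0% of probe sets have their 2 values closest to 0 equal in size and opposite in sign (tolerance 1e-05), so they were treated as centred per probe set. The platform annotation gave 1 gene symbol to 41091 probe sets, several to 1801 and none to 11721, and 62 were controls. Probe sets were averaged to 19775 genes. An additive model of 11 arrays with a spike-in set term was fitted in limma 3.58.1 (R 4.3.3), whose prior variance followed mean value, and p-values were adjusted over all genes by Benjamini and Hochberg's method. Interactions used group means with that term. The fit was tested on simulated data with independent normal spread and known additive changes. Those data held no interaction and no deviating array, so the test does not cover either. The 7 genes were named, with values for pathway genes that passed or had the 2 smallest p in the BSA, ethanol and E2-BSA comparisons. The genes, lists and tests were chosen with earlier results of these data known. The control and E2-BSA arrays of the same number deviated together (r = 0.81 across genes), which coincides with the spike-in sets.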

Additional observations from a re-analysis of the deposited data

How the results depend on the processing

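None of the 7 genes was called in any of the 10 comparisons under the alternatives run (140 counts, all 0), and the lowest adjusted p among them by limma was 0.187. Of 948 single values, 854 kept their direction and 94 values, none called, changed sign. These values are not independent checks. The fits without a variance trend and without genes of narrow span could not move an estimate. Several omissions of 1 array gave the same value. The interactions had no fit with 1 array left out. With the replicate block, in the control and E2-BSA arrays alone, CCN1 was at -0.22 and CCN2 at -0.14, with 0 genes called (1117 at an unadjusted p under 0.05), as without the block (74). Counts over all genes moved more. BSA against control called 70 genes, 0 without the set term, 163 with the probe set of largest SD, 212 by single probe sets and 4 to 76 with 1 array left out (4 without the second control, 5 without the second E2-BSA array). E2-BSA against BSA called 61, with 0, 137 and 188 under the same 3 alternatives and 0 to 75 with 1 array left out. Ethanol against control called 17, with 0 without the set term, 47 after quantile normalization, 4 with the probe set of largest SD, 8 by single probe sets and 0 to 19 with 1 array left out. Both of these reached 0 without the second control or the second E2-BSA array. Estradiol against ethanol called 2, with 0 under group means with or without the set term, quantile normalization and both probe set choices, and 0 to 3 with 1 array left out. ICI called 0, with 3 under group means with a set term, 1 after quantile normalization and 0 to 22 with 1 array left out (22 without the G15 array). G15 called 0, and 0 to 179 with 1 array left out (179 without the G15 array). The G15 interaction called 2, with 0 without the set term or with array medians taken off. The causes were not tested. Signal over background is unknown for centred values.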
